A study of Mus musculus with 20 samples.

Results

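The proteasome subunit genes were compared across 4 genotype groups of mouse microglia, the resident macrophages of the brain. A gene was included if its symbol began with Psma, Psmb, Psmc, Psmd or Psme followed by a digit, and if a probe set of the array named that gene alone. Of 19751 genes measured in this way, 45 met the rule, and each was represented by its probe set with the highest mean. They comprised 31 subunits of the constitutive proteasome, 5 genes of the immunoproteasome, 2 other activators, 3 chaperones of the regulatory particle and 2 tissue-restricted subunits. The remaining 2, Psmc3ip and Psme3ip1, met the rule by name alone: they encode partners of a recombinase and of an activator and are not subunits. Of the 45 genes, 44 passed the filter on low values, which asks for 4 or more arrays with a level above their 40th percentile. Psmb11, a subunit restricted to the thymus, did not pass, with log2 levels between 3.62 and 4.44 on all 20 arrays. The members lay on 16 chromosomes.

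The arrays measured RNA from microglia that had been sorted by flow cytometry from perfused, dissociated brains of littermates aged 8.5 months. There were 4 arrays of WT mice, 4 of Trem2-/- mice, which lack the microglial surface receptor Trem2, 5 of 5XFAD mice and 6 of Trem2-/-5XFAD mice. As background, 5XFAD mice carry mutant human amyloid precursor protein and presenilin transgenes, driven in neurons by a Thy1 promoter, and form amyloid plaques. One further array was titled as WT but its genotype and source read Trem2-/-, so it entered no group. The sources used here do not give the sorting gate, the sex of the animals or the kind of Trem2 deletion. The labelling reaction started from 2 ng of total RNA per sample. Nothing in the labels says that samples came from separate litters or days, so the p-values measure the spread between these arrays. All levels are given as log2 of the deposited intensity plus 1, a scale that understates folds of weakly expressed genes, and levels were compared between arrays, not between genes.

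The proteasome is the protease that degrades proteins tagged with ubiquitin. Its core is a barrel of alpha and beta rings, in which 3 beta subunits carry the catalytic sites. A regulatory particle of ATPases and non-ATPase subunits recognises, unfolds and feeds in the substrate. Interferon induces replacements of the catalytic subunits, Psmb8 for Psmb5, Psmb9 for Psmb6 and Psmb10 for Psmb7, together with the activator PA28, a ring of Psme1 and Psme2. The resulting immunoproteasome is known for making peptides presented on class I molecules, and macrophages and microglia express it. Psmb9, Tap1, Psmb8 and Tap2 lie next to each other on chromosome 17, within the class II region of the major histocompatibility complex, and Tap1 and Tap2 encode the transporter of the peptides. Trem2 and Psmb1 are on chromosome 17 too. Psme1 and Psme2 are separated by a single gene, Emc9, on chromosome 14.

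The promoters of the 3 members with the largest called increase in 5XFAD are shown because later paragraphs turn on their levels. Each is the 250 bases directly upstream of the annotated start, from RefSeq (GRCm38.p6), read on the strand of the gene: Psmb8 at chr17:34197945-34198194 (plus strand), Psmb6 at chr11:70525107-70525356 (plus strand) and Psme2 at chr14:55591102-55591351 (minus strand, the first of its 2 annotated starts). Capitals mark matches to the 4 motifs searched on both strands, except the short CCAAT box, which none of the 3 holds.
Psmb8: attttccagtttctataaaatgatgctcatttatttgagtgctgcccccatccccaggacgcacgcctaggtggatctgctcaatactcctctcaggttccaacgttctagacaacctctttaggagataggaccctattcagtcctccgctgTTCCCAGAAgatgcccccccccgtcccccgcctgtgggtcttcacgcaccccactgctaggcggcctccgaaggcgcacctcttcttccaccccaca
Psmb6: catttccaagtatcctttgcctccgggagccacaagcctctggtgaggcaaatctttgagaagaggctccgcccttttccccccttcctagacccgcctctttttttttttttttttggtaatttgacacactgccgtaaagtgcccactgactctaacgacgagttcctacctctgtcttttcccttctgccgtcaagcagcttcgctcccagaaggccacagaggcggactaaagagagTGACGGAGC
Psme2: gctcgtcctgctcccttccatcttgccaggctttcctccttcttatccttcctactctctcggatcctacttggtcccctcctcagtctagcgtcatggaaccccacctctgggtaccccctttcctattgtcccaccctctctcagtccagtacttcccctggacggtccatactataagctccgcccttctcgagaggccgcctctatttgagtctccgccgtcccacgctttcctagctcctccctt
The capitals in Psmb8 are a match to TTCNNNGAA, the core of the gamma interferon activated site. It was found in 7.02% of 32851 windows of this length, in 1 of the 5 immunoproteasome genes and in 0 of the 33 other members with a window. The capitals in Psmb6 are a match to TGACNNNGC, the core of the antioxidant response element, bound by the factors Nfe2l1 and Nfe2l2. It was found in 10.2% of all windows, in 0 of 5 immunoproteasome genes and in 5 of the 33 others, among them Psmb5 and Psmc6. The interferon-stimulated response element core GAAANNGAAA was found in 2.98% of all windows, in 0 of 5 immunoproteasome genes and in 3 of the 33 others. CCAAT, a box common in promoters, was found in 33.8% of all windows, in 1 of 5 immunoproteasome genes (Psmb9) and in 15 of the 33 others. None of the 4 motifs contains another. A match is a description of the letters only, and windows were matched for 38 of the 45 members.

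Trem2 was read first as a check of the labels. It averaged 11.31 ± 0.12 in WT (SD, n = 4), 11.68 ± 0.14 in 5XFAD (SD, n = 5), 6.96 ± 0.08 in Trem2-/- (SD, n = 4) and 7.05 ± 0.29 in Trem2-/-5XFAD (SD, n = 6). The array with conflicting labels read 11.08. Transcripts of 10 genes typical of salivary gland summed to between 1928 and 3831 intensity units in WT 1, WT 2, 5XFAD 1 and 5XFAD 2, to 962 in Trem2-/- 3 and to at most 295 in the other assigned arrays. Results for the called members are therefore also given without those 4 arrays, which leaves 2 WT and 3 5XFAD arrays. Other genes of the pathway are given with all assigned arrays only. A transcript of the inactive X, Xist, exceeded the mean of Y-linked genes in 3 of 4 WT, 3 of 4 Trem2-/-, 1 of 5 5XFAD and 0 of 6 Trem2-/-5XFAD arrays, so sex signal and genotype were partly confounded.

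The comparison of 5XFAD with WT addresses how microglia differ in a brain with amyloid. Of the 44 tested members, 7 rose and none fell (limma, adjusted p under 0.05). The 7 were Psmb8, Psme1 and Psme2 of the immunoproteasome, the catalytic core subunit Psmb6, the alpha ring subunit Psma1, the ATPase Psmc6 and the regulatory particle subunit Psmd7. Among all 12728 genes tested, 15.0% were called in either direction and 8.23% were called higher, against 15.9% of the members, so the share of members called in either direction was near that of all genes. Of the 44 members, 34 had a positive difference, with a median of 0.15 on the log2 scale. Over all genes the median was -0.02, and 46.6% of differences were positive. Among the 5 immunoproteasome genes, 3 rose, and the median difference was 0.33. Among the 31 constitutive subunits, 4 rose, and the median was 0.17. Without the 4 arrays with salivary gland transcripts 2 members were called, Psmb6 and Psmb8, and 11.4% of all genes were. Without WT 2 alone 4 were called, Psmb6, Psmb8, Psmc6 and Psme2, and 14.6% of all genes.

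The comparison of Trem2-/-5XFAD with 5XFAD addresses what the loss of Trem2 changes in the same disease model. It shares the 5XFAD arrays with the comparison above, so a high 5XFAD level enters both. Of the 44 members, 4 fell and none rose: Psmb8, Psme2, Psmb6 and the alpha ring subunit Psma7. In all, 7.68% of genes were called in either direction and 4.46% were called lower, against 9.09% of the members. Of the members, 38 had a negative difference, with a median of -0.09, while the median of all genes was 0.04. Among the immunoproteasome genes 2 of 5 fell (median -0.37), and among the constitutive subunits 2 of 31 fell (median -0.07). Without the 4 arrays, or without 5XFAD 1 alone, 1 member was called, Psmb6, while the share of all genes called was 4.57% and 5.32%.

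**Figure D1:**
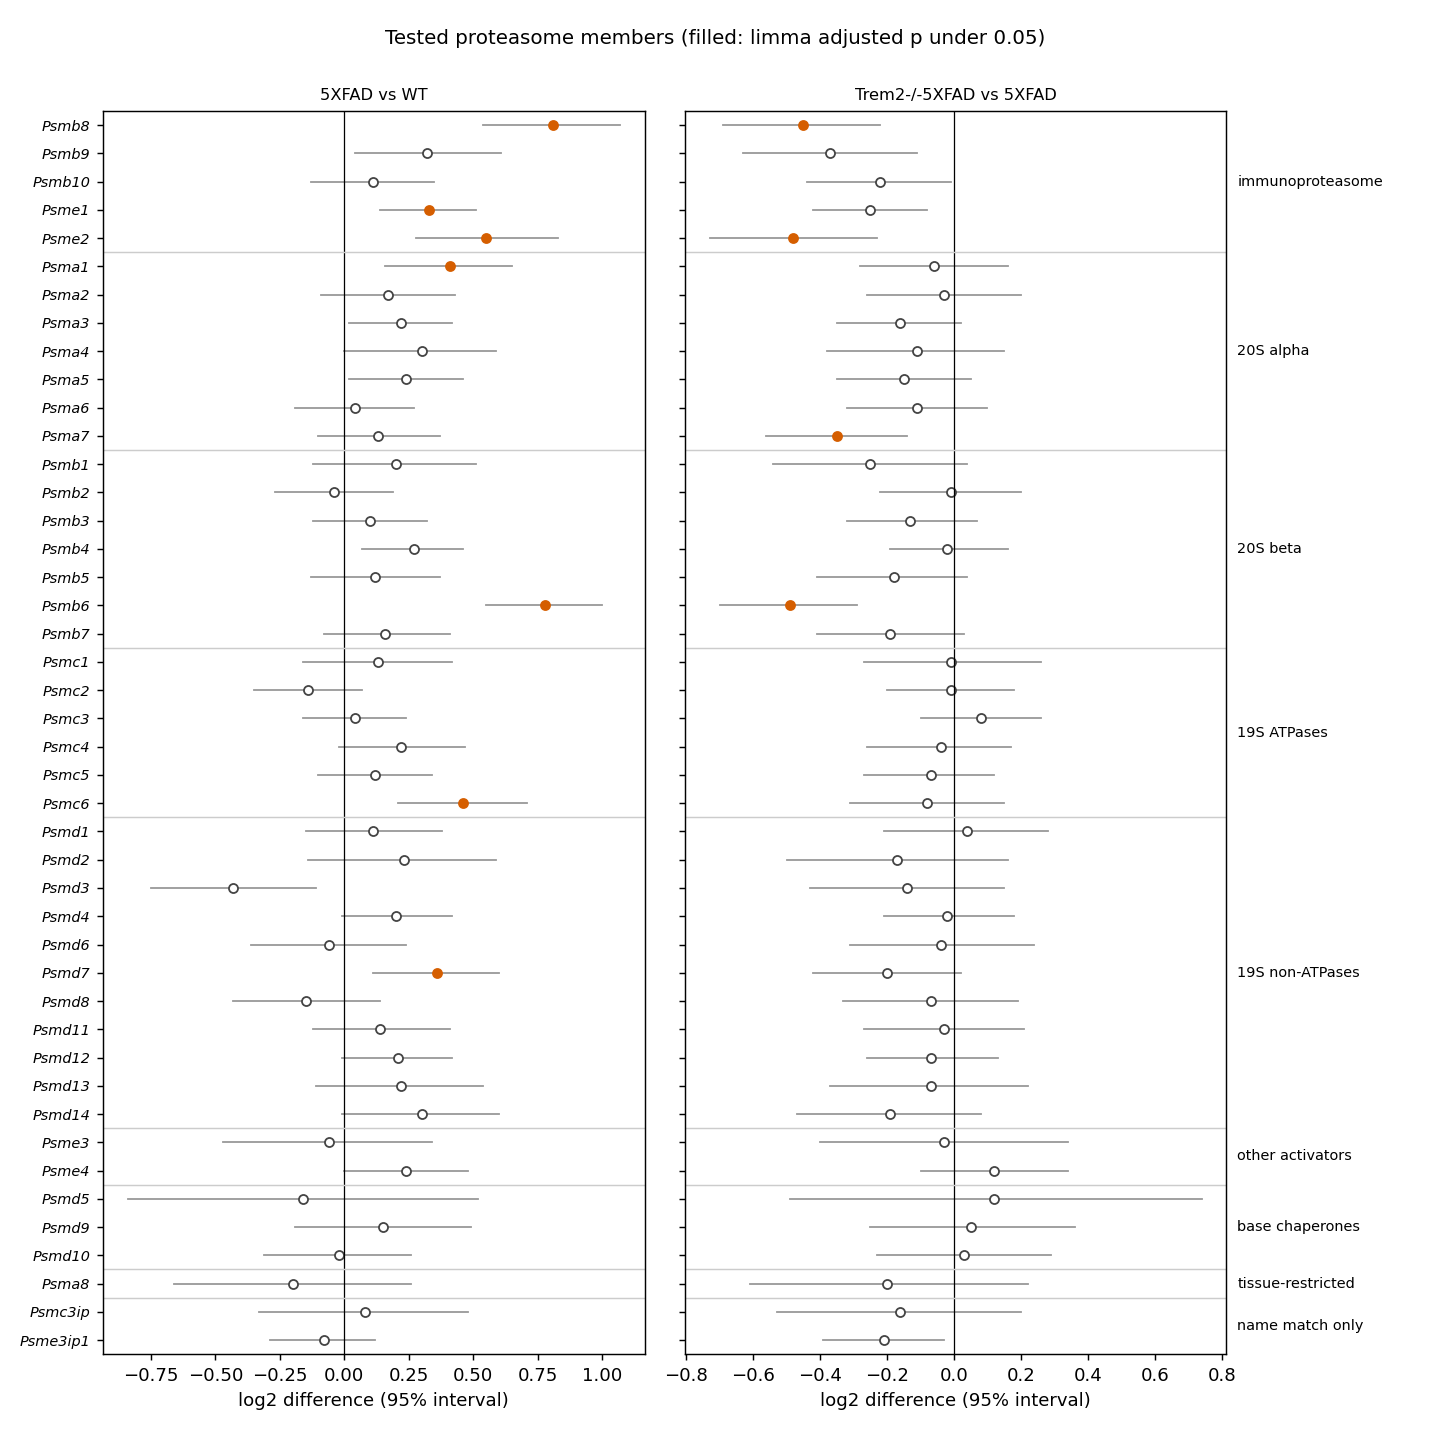
Log2 differences with 95% intervals for the 44 tested members, grouped by role, in 5XFAD against WT (left, 4 WT and 5 5XFAD arrays) and in Trem2-/-5XFAD against 5XFAD (right, 6 and 5 arrays). Filled points had an adjusted p under 0.05: the 7 on the left all lie above 0 and the 4 on the right all lie below it.

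Psmb8, the immunoproteasome subunit that replaces Psmb5 at the chymotrypsin-like site, read 8.31, 8.15, 8.73 and 8.49 in WT and 9.55, 9.36, 9.12, 9.05 and 9.05 in 5XFAD. It read 8.66, 8.46, 8.35 and 8.44 in Trem2-/-, and 8.60, 8.80 and 8.83 as the lowest, median and highest of the 6 Trem2-/-5XFAD arrays. All 5XFAD arrays were above all arrays of the other 3 groups. Psmb8 rose by 0.81 ± 0.12 (SE) in 5XFAD against WT, 1.75 times (95% interval 0.54 to 1.07, adjusted p = 9.6e-05), and fell by 0.45 ± 0.11 in Trem2-/-5XFAD against 5XFAD (adjusted p = 0.0143). The 2 highest values belong to 5XFAD 1 and 5XFAD 2, arrays with salivary gland transcripts. Without the 4 such arrays the first difference was 0.46 ± 0.13 (adjusted p = 0.0284) and the second was -0.30 ± 0.10 (adjusted p = 0.114). The second call was also lost without 5XFAD 1 alone (-0.37, adjusted p = 0.0588).

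Psmb6, the constitutive caspase-like subunit of the core, read 10.64, 10.44, 10.55 and 10.37 in WT and 11.44, 11.30, 11.31, 11.10 and 11.24 in 5XFAD. It read 10.72, 10.51, 10.29 and 10.31 in Trem2-/-, and the lowest, median and highest of Trem2-/-5XFAD were 10.58, 10.79 and 10.97. The 5XFAD arrays again lay above every other array. Psmb6 rose by 0.78 ± 0.11 in 5XFAD (1.71 times, adjusted p = 2.8e-05), and fell by 0.49 ± 0.10 in Trem2-/-5XFAD against 5XFAD (1.41 times lower, adjusted p = 0.00254). Both calls held without the 4 arrays with salivary gland transcripts, at 0.75 ± 0.15 (adjusted p = 0.00303) and -0.43 ± 0.12 (adjusted p = 0.0444). Psmb6 is the constitutive subunit whose place Psmb9 takes in the immunoproteasome.

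Psmb9 itself read 9.71, 9.73, 9.60 and 9.76 in WT and 10.24, 10.29, 9.68, 9.81 and 10.10 in 5XFAD. In Trem2-/- it read 9.75, 9.58, 9.71 and 9.48, and in Trem2-/-5XFAD it spanned 9.37 to 10.00 with a median of 9.66. The groups overlapped. Its difference in 5XFAD was 0.32 ± 0.14 (95% interval 0.04 to 0.61, adjusted p = 0.126), and in Trem2-/-5XFAD against 5XFAD it was -0.37 ± 0.12 (95% interval -0.63 to -0.11, adjusted p = 0.0778). Neither passed the threshold. The 2 highest values were those of 5XFAD 1 and 5XFAD 2, and without the 4 arrays the first difference was 0.18 ± 0.18 (adjusted p = 0.617) and the second was -0.21 ± 0.14 (adjusted p = 0.524). The second did pass without 5XFAD 3 (-0.46, adjusted p = 0.0291) or without Trem2-/-5XFAD 3 (-0.44, adjusted p = 0.0335).

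Psmb10, which replaces the trypsin-like subunit Psmb7, read 9.28, 9.18, 9.18 and 8.99 in WT and 9.33, 9.40, 9.33, 9.03 and 9.25 in 5XFAD. It read 9.09, 9.36, 9.31 and 8.81 in Trem2-/-, and in Trem2-/-5XFAD it spanned 8.93 to 9.20 with a median of 9.03. The 5XFAD difference of 0.11 ± 0.11 had a 95% interval from -0.13 to 0.35 (adjusted p = 0.606), and that of Trem2-/-5XFAD against 5XFAD was -0.22 ± 0.10 (adjusted p = 0.229). Of the 3 inducible catalytic subunits, Psmb8 alone was called in either comparison.

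The other constitutive catalytic subunits were not called. Psmb5 read 9.78, 9.46, 9.62 and 9.56 in WT and 9.90, 9.68, 10.00, 9.50 and 9.55 in 5XFAD, a difference of 0.12 ± 0.12 (95% interval -0.13 to 0.37, adjusted p = 0.578). It spanned 9.46 to 9.79 in Trem2-/- and 9.34 to 9.75 in Trem2-/-5XFAD, and every group overlapped every other. Psmb7 read 8.96, 9.27, 9.04 and 9.46 in WT and 9.30, 9.59, 9.42, 9.20 and 9.23 in 5XFAD, a difference of 0.16 ± 0.12 (95% interval -0.08 to 0.41, adjusted p = 0.415). It spanned 8.98 to 9.33 in Trem2-/- and 8.99 to 9.27 in Trem2-/-5XFAD. Against 5XFAD, Trem2-/-5XFAD differed by -0.18 ± 0.11 in Psmb5 (adjusted p = 0.377) and by -0.19 ± 0.11 in Psmb7 (adjusted p = 0.327).

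Psme2, a subunit of PA28, which opens the core and favours peptide release, read 8.04, 8.37, 8.44 and 8.37 in WT and 9.10, 8.95, 8.84, 8.66 and 8.76 in 5XFAD. It read 8.09, 8.50, 8.34 and 8.23 in Trem2-/-, and 7.95, 8.45 and 8.55 as the lowest, median and highest in Trem2-/-5XFAD. All 5XFAD arrays exceeded all others, and 5XFAD 1 and 5XFAD 2 were again the highest. Psme2 rose by 0.55 ± 0.13 in 5XFAD (1.47 times, adjusted p = 0.00576) and fell by 0.48 ± 0.12 in Trem2-/-5XFAD against 5XFAD (1.39 times lower, adjusted p = 0.0147). Without the 4 arrays the values were 0.34 ± 0.17 (adjusted p = 0.24) and -0.37 ± 0.13 (adjusted p = 0.145), and the second call was also lost without 5XFAD 1 (-0.42, adjusted p = 0.0576). A near-identical copy, Psme2b, shares sequence with Psme2, and the probe set annotated to both differed by 0.38 ± 0.13 and by -0.13 ± 0.12 in the same comparisons, so the part of each gene is uncertain.

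Psme1, the partner of Psme2 in PA28, read 9.97, 9.72, 9.77 and 9.88 in WT and 10.21, 10.19, 10.24, 10.01 and 10.16 in 5XFAD. It read 9.79, 9.76, 9.70 and 9.46 in Trem2-/- and spanned 9.84 to 9.95 in Trem2-/-5XFAD, so that 5XFAD stood above the other groups by a narrow margin. Psme1 rose by 0.33 ± 0.09 in 5XFAD (1.25 times, 95% interval 0.14 to 0.51, adjusted p = 0.0172). The call was lost without WT 2 (0.29, adjusted p = 0.0584), without WT 3 (0.30, adjusted p = 0.0522), without the 4 arrays (0.31, adjusted p = 0.141), with only the groups compared in the fit (0.33, adjusted p = 0.0761) and after quantile normalization (0.23, adjusted p = 0.085). In Trem2-/-5XFAD against 5XFAD the difference was -0.25 ± 0.08 (adjusted p = 0.0735), with no overlap between the groups. It passed the threshold with a pseudocount of 16 (-0.24, adjusted p = 0.0321) and with arrays centred on the median (-0.29, adjusted p = 0.0446).

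**Figure D2:**
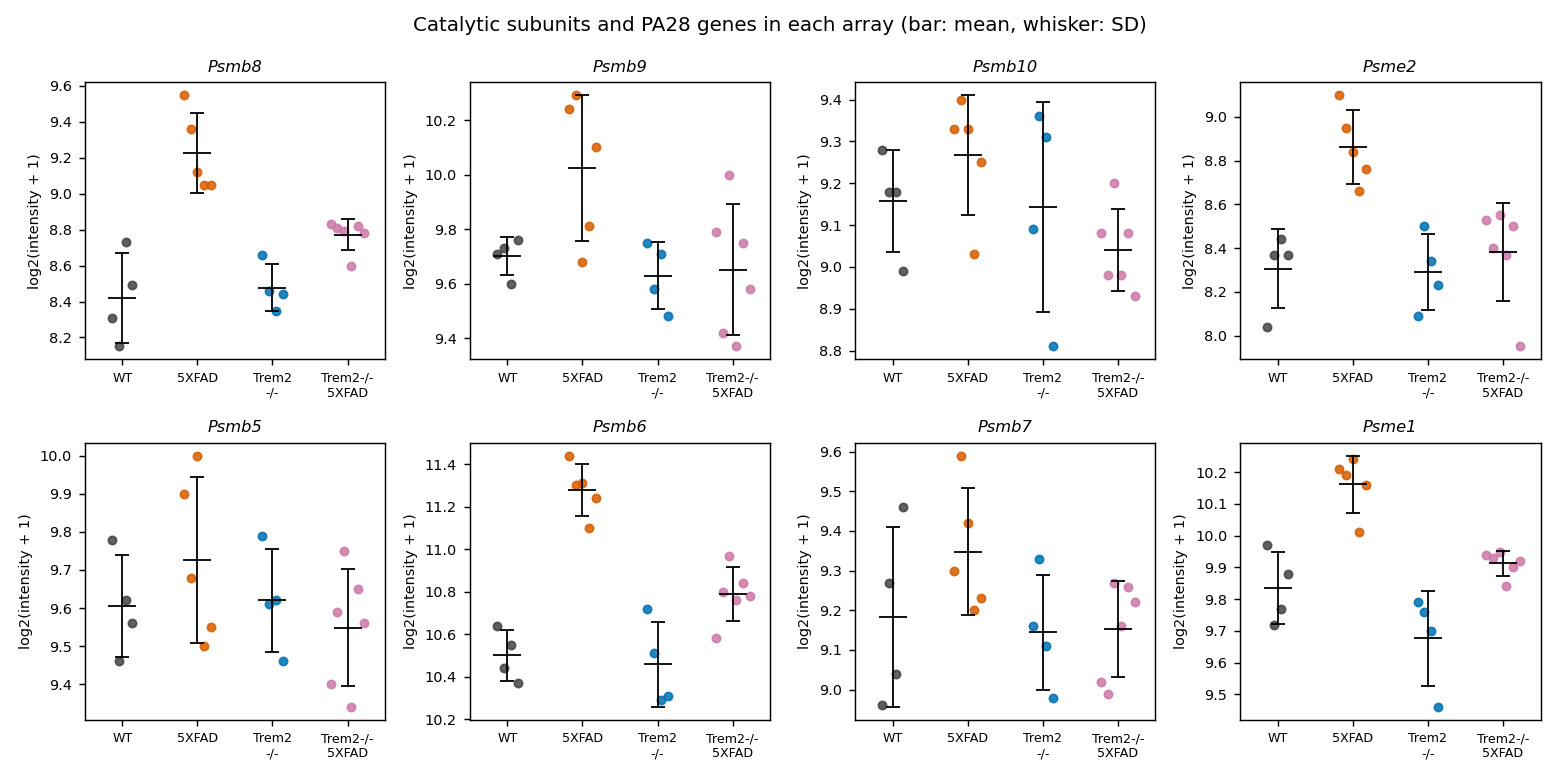
Log2(intensity + 1) of the 3 inducible catalytic subunits and Psme2 (top) and of the constitutive subunits they replace and Psme1 (bottom), 1 point per array, with bars at the group mean and whiskers of 1 SD (4 WT, 5 5XFAD, 4 Trem2-/- and 6 Trem2-/-5XFAD arrays). Each panel has its own scale that does not start at 0. In the panels of Psmb8, Psmb6, Psme1 and Psme2 every 5XFAD point lies above every other point.

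The 7 members of the alpha ring, which forms the gate of the core, all had a positive difference in 5XFAD, from 0.04 in Psma6 to 0.41 in Psma1, and 1 of the 7 rose. Psma1 averaged 8.28 ± 0.26 in WT (SD, n = 4) and 8.68 ± 0.13 in 5XFAD (SD, n = 5), with 1 WT array at 8.61 inside the 5XFAD range (0.41 ± 0.12, adjusted p = 0.0211). Its call was lost without WT 1, WT 2 or 5XFAD 3, each in turn. Without the 4 arrays with salivary gland transcripts its difference was 0.19 ± 0.15 (adjusted p = 0.503). The values of the others were 0.17 in Psma2, 0.22 in Psma3, 0.30 in Psma4, 0.24 in Psma5 and 0.13 in Psma7, none called. All 7 differences were negative in Trem2-/-5XFAD against 5XFAD, and Psma7 fell, from 9.94 ± 0.16 in 5XFAD (SD, n = 5) to 9.59 ± 0.17 (SD, n = 6). This fall of 0.35 ± 0.10 had an adjusted p of 0.0371 and was lost in 8 of the 19 fits that left out 1 array. Without the 4 arrays, Psma7 differed by -0.24 ± 0.12 (adjusted p = 0.335).

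In the beta ring, the members without catalytic sites were not called in either comparison. Psmb4 came closest in 5XFAD: its 5 arrays lay between 10.19 and 10.24 and its WT arrays between 9.83 and 10.20, a difference of 0.27 ± 0.09 (adjusted p = 0.0611). Psmb1 (0.20), Psmb2 (-0.04) and Psmb3 (0.10) differed less. Their values in Trem2-/-5XFAD against 5XFAD ran from -0.25 in Psmb1 to -0.01 in Psmb2.

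Of the 6 ATPases that unfold substrates, Psmc6 rose in 5XFAD. It read 7.59, 7.88, 7.87 and 7.94 in WT and 8.45, 8.41, 8.38, 7.99 and 8.14 in 5XFAD, without overlap (0.46 ± 0.12, 1.37 times, adjusted p = 0.0117). It also read 8.24, 8.35, 8.30 and 8.07 in Trem2-/-, and spanned 7.95 to 8.39 in Trem2-/-5XFAD, so WT was the lowest group (Trem2-/- against WT 0.42 ± 0.13, adjusted p = 0.156). The difference of Trem2-/-5XFAD against 5XFAD was -0.08 ± 0.11 (adjusted p = 0.744). Without the 4 arrays with salivary gland transcripts, Psmc6 differed by 0.27 ± 0.16 in 5XFAD against WT (adjusted p = 0.326). Among those arrays, WT 1 had its lowest WT value, and 5XFAD 1 and 5XFAD 2 its highest 5XFAD values. The other 5 ATPases lay between -0.14 in Psmc2 and 0.22 in Psmc4 in 5XFAD, and no ATPase was called in Trem2-/-5XFAD against 5XFAD.

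Of the 11 non-ATPase subunits of the regulatory particle, Psmd7, a lid subunit that pairs with the deubiquitinase Psmd14, rose in 5XFAD. It averaged 7.74 ± 0.19 in WT (SD, n = 4) and 8.09 ± 0.20 in 5XFAD (SD, n = 5), with 1 5XFAD array at 7.86 inside the WT range (0.36 ± 0.12, adjusted p = 0.0475). This call, the nearest to the threshold, was lost in 15 of the 19 fits that left out 1 array. Without the 4 arrays with salivary gland transcripts, Psmd7 differed by 0.51 ± 0.16 (adjusted p = 0.055). Psmd14 differed by 0.30 ± 0.15 (adjusted p = 0.2), the ubiquitin receptor Psmd4 by 0.20 ± 0.10 (adjusted p = 0.214), the scaffold Psmd2 by 0.23 ± 0.18 (adjusted p = 0.453) and Psmd12 by 0.21 ± 0.10 (adjusted p = 0.209). The lid subunit Psmd3 went the other way: it read 7.49, 8.33, 7.53 and 7.62 in WT and between 7.17 and 7.45 in 5XFAD, without overlap and with WT 2 apart from the rest of its group (-0.43 ± 0.16, adjusted p = 0.0689). No member of this class was called in Trem2-/-5XFAD against 5XFAD, where the values ran from -0.20 in Psmd7 to 0.04 in Psmd1.

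The remaining members were not called. Psme3, the nuclear homologue of the PA28 subunits, differed by -0.06 ± 0.20 in 5XFAD and by -0.03 ± 0.18 in Trem2-/-5XFAD against 5XFAD, while Psme4, a nuclear activator of another kind, differed by 0.24 ± 0.12 (adjusted p = 0.188) and by 0.12 ± 0.11. Of the chaperones that help assemble the regulatory particle, Psmd5 was the most variable member, with a within-group SD of 0.55 and levels from 4.18 to 6.04. Its interval in 5XFAD ran from -0.84 to 0.52, the widest of the members. Psmd9 differed by 0.15 ± 0.16 and Psmd10 by -0.02 ± 0.14 in 5XFAD. Psma8, a subunit restricted to germ cells, differed by -0.20 ± 0.22.

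In 5XFAD against WT, 7 of the 44 members had no overlap between groups, against 13.4% of all genes tested. They were Psmb8, Psmb6, Psme1, Psme2, Psmc6 and Psma3 on the higher side and Psmd3 on the lower side. For Trem2-/-5XFAD against 5XFAD it was 4 of 44, against 7.14% of all genes. The 4 were Psmb8, Psmb6, Psme1 and Psme2. Across the 44 members the median within-group SD was 0.17, and over all genes tested it was 0.22, at median levels of 8.51 and 6.20.

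Within each array, the mean of the 5 immunoproteasome genes minus the mean of the 31 constitutive subunits compares the 2 forms without regard to the array's overall brightness. Its absolute value depends on the probes, so only its change between groups can be read. It averaged 0.38 ± 0.06 in WT (SD, n = 4), 0.30 ± 0.05 in Trem2-/- (SD, n = 4), 0.64 ± 0.16 in 5XFAD (SD, n = 5) and 0.39 ± 0.09 in Trem2-/-5XFAD (SD, n = 6). The 5XFAD arrays read 0.77, 0.75, 0.39, 0.58 and 0.72, so 4 of the 5 lay above all other arrays and 5XFAD 3 lay among them. The group difference was 0.26 in 5XFAD against WT and -0.25 in Trem2-/-5XFAD against 5XFAD, and without the 4 arrays with salivary gland transcripts it was 0.15 and -0.17. No test is given for it, because the members were chosen with results of these data known.

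The transcript level of each inducible subunit against the one it replaces changed differently by pair. Psmb8 minus Psmb5 was 0.68 higher in 5XFAD than in WT, with every 5XFAD array at or above -0.88 and every WT array at or below -0.89. The 2 lowest WT values (-1.47 and -1.32) and the 2 highest 5XFAD values (-0.35 and -0.32) came from the 4 arrays with salivary gland transcripts. The other arrays read -0.89 and -1.07 in WT and -0.88, -0.45 and -0.50 in 5XFAD. Psmb9 minus Psmb6 differed by -0.45, with a difference of 0.78 in Psmb6 and of 0.32 in Psmb9. Psmb10 minus Psmb7 differed by -0.05. The 3 differences in Trem2-/-5XFAD against 5XFAD were -0.27, 0.12 and -0.03. In Trem2-/-5XFAD against Trem2-/- they were 0.37, -0.30 and -0.11.

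**Figure D3:**
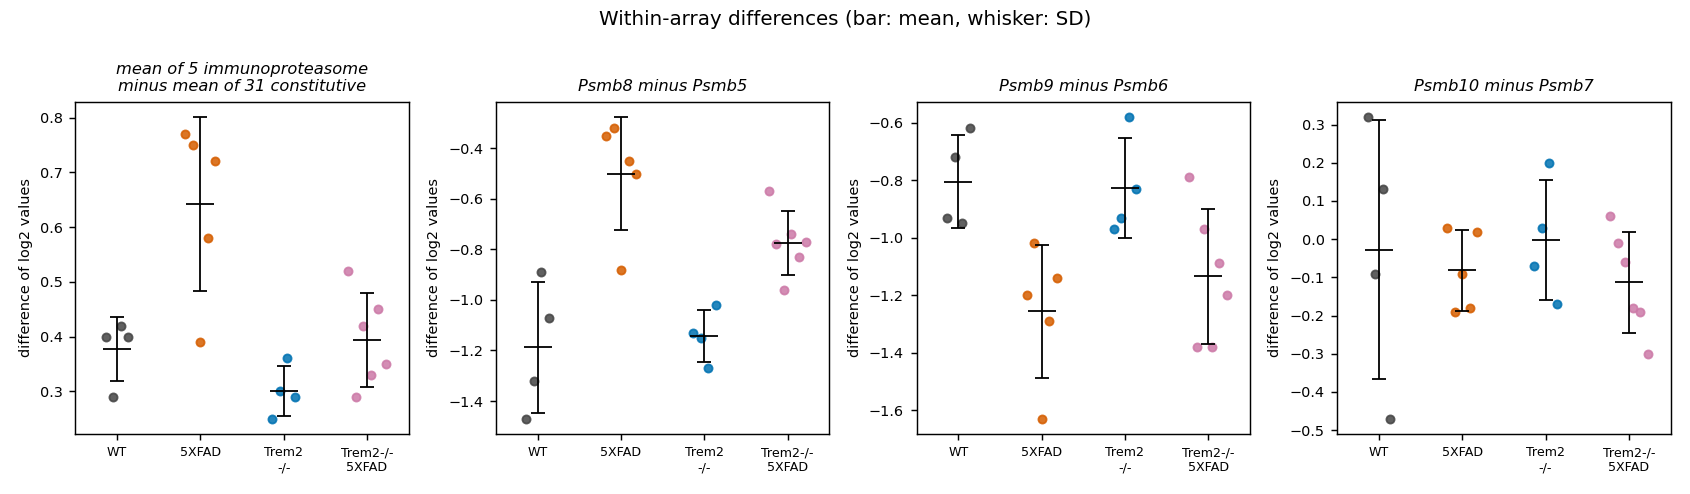
Differences of log2 values within each array: the mean of 5 immunoproteasome genes minus the mean of 31 constitutive subunits, and each inducible catalytic subunit minus the one it replaces, 1 point per array with the group mean and 1 SD. Axes do not start at 0 and their origin depends on the probes. The 5XFAD group stands highest in the first panel (0.64 ± 0.16) and in Psmb8 minus Psmb5, and lowest in Psmb9 minus Psmb6.

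Over the 19 assigned arrays, Pearson's r was 0.90 between Psmb8 and Psmb6, 0.80 between Psmb8 and Psme1, 0.78 between Psmb8 and Psme2, 0.64 between Psmb8 and Psmb9 and 0.28 between Psmb8 and Psmb10. These values describe arrays that share the genotype groups and have no p. The genes outside the list most like the mean of the 5 immunoproteasome genes over these arrays were Eif3h, a translation initiation factor subunit (r = 0.941), Arrdc4, an arrestin-domain protein (0.926), Galc, a lysosomal galactosylceramidase (0.921), Tmem106a (0.920) and Fkbp2, a chaperone of the endoplasmic reticulum (0.919). In 5XFAD against WT they differed by 0.50, 1.16, 0.85, 0.71 and 0.50 in this order, and in Trem2-/-5XFAD against 5XFAD by -0.38, -1.04, -0.63, -0.55 and -0.39. The genes were chosen by their likeness over these same arrays, so the direction of these differences follows from the choice.

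Without amyloid, the comparison of Trem2-/- with WT asks what the loss of the receptor alone changes. No member was called (limma), and 0.613% of all genes were. At an unadjusted p under 0.05 there were 6 members, 5 higher and 1 lower, against 12.4% of all genes. Psmc6 had the smallest adjusted p (0.156). The immunoproteasome genes differed by 0.06 ± 0.13 in Psmb8, -0.07 ± 0.15 in Psmb9, -0.02 ± 0.12 in Psmb10, -0.16 ± 0.10 in Psme1 and -0.02 ± 0.14 in Psme2. The interval of Psmb8, from -0.22 to 0.33, does not reach the 0.81 seen in 5XFAD.

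In the absence of Trem2, Trem2-/-5XFAD against Trem2-/- gives the difference that goes with the 5XFAD transgenes. No member was called, and 2.18% of all genes were. At an unadjusted p under 0.05 there were 6 members, 4 higher and 2 lower, and 14.3% of all genes. Psmb6 differed by 0.33 ± 0.10 (95% interval 0.11 to 0.55, adjusted p = 0.117), Psmb8 by 0.29 ± 0.12 (0.04 to 0.55, adjusted p = 0.249), Psme1 by 0.24 ± 0.09 (adjusted p = 0.192) and Psme2 by 0.09 ± 0.13 (adjusted p = 0.808). The chaperone Psmd9 differed by 0.47 ± 0.16 with no overlap (adjusted p = 0.136), and it was called when the other 2 groups were left out of the fit. Psmd3 was again on the lower side (-0.36 ± 0.15, adjusted p = 0.256).

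The interaction tests whether the 5XFAD difference depends on Trem2. No member was called, and 2.60% of all genes were. At an unadjusted p under 0.05 there were 7 members, all lower, and 14.2% of all genes. They were Psmb8 (-0.51 ± 0.17, adjusted p = 0.147), Psmc6 (-0.50 ± 0.17, 0.136), Psme2 (-0.46 ± 0.18, 0.234), Psmb6 (-0.45 ± 0.15, 0.142), Psmd7 (-0.44 ± 0.16, 0.191), Psma3 (-0.42 ± 0.13, 0.118) and Psma1 (-0.37 ± 0.16, 0.296). A 5XFAD difference smaller without Trem2 than with it was thus not shown for any member at the threshold. The 95% interval of Psmb8 ran from -0.87 to -0.15. Without the 4 arrays with salivary gland transcripts, the Psmb8 value was -0.17 ± 0.16 (adjusted p = 0.714) and that of Psmb6 was -0.43 ± 0.19 (adjusted p = 0.288).

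Other genes of the pathway were read from lists of assembly factors, of control by Nfe2l1, of control by interferon and of class I peptide loading. In 5XFAD against WT, 13.3% of the tested assembly list was called, against 15.0% of all genes. In Trem2-/-5XFAD against 5XFAD it was 6.67% against 7.68%. Of 15 tested assembly and associated factors, 2 rose in 5XFAD and none fell: Pomp, the chaperone that matures the core (0.35 ± 0.09, adjusted p = 0.0103), and Psmg4, a chaperone of the alpha ring (0.59 ± 0.13, adjusted p = 0.00427). Pomp read 9.78, 9.94, 9.91 and 9.94 in WT and 10.37, 10.18, 10.29, 10.17 and 10.21 in 5XFAD, without overlap. Psmg4 read 6.85, 7.08, 7.11 and 6.82 in WT and 7.81, 7.56, 7.51, 7.48 and 7.39 in 5XFAD, again without overlap. Its highest values were those of 5XFAD 1 and 5XFAD 2, arrays with salivary gland transcripts. Within WT and 5XFAD, Pomp was lowest in WT 1 and highest in 5XFAD 1, also such arrays. In Trem2-/-5XFAD against 5XFAD, Psmg4 fell by 0.57 ± 0.12 (adjusted p = 0.00438), the only 1 of the 15 called, and Pomp differed by -0.22 ± 0.08 (adjusted p = 0.127).

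Of 10 genes around Nfe2l1, the factor that raises proteasome genes when proteasome capacity falls short, 2 rose in 5XFAD. Nfe2l1 itself rose by 0.48 ± 0.11 (adjusted p = 0.00308), and its partner Maff rose by 0.85 ± 0.15 (adjusted p = 3.9e-04). Nfe2l1 read 7.78, 7.30, 7.56 and 7.75 in WT and between 8.02 and 8.15 in 5XFAD, without overlap. In Trem2-/- it lay between 7.67 and 8.02, a range that overlaps WT and reaches the lowest 5XFAD array. Nfe2l2 differed by 0.19 ± 0.11 (adjusted p = 0.258). None of the 10 was called in Trem2-/-5XFAD against 5XFAD, beside 7.68% of all genes. The median difference there was -0.03.

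Of 13 genes of interferon signalling and its control of the immunoproteasome, 1 rose and 2 fell in 5XFAD. That is 23.1% of the list, against 15.0% of all genes called. The kinase Jak2 rose by 0.58 ± 0.13 (adjusted p = 0.00299), the interferon gamma receptor chain Ifngr1 fell by 0.84 ± 0.13 (adjusted p = 1.2e-04), and Irf2 fell by 0.37 ± 0.11 (adjusted p = 0.0203). The direct regulators Irf1 (0.18 ± 0.20, adjusted p = 0.642) and Nlrc5 (0.20 ± 0.11, adjusted p = 0.253) were not called. None of the 13 was called in Trem2-/-5XFAD against 5XFAD or in Trem2-/- against WT, beside 7.68% and 0.613% of all genes. In Trem2-/- against WT 3 of the 13 had no overlap between groups, as had 737 of all 12728 genes tested. Among the 3 was Irf1, not called, at 9.41 to 9.67 in Trem2-/- and 8.49 to 9.29 in WT. In Trem2-/-5XFAD against Trem2-/-, 1 of the 13 was called, on the lower side, beside 2.18% of all genes. Of 9 class I loading genes, Tap1, the neighbour of Psmb8 and Psmb9, rose by 0.54 ± 0.15 in 5XFAD (adjusted p = 0.0138). Tap1 was the only 1 of the 9 called, 11.1% of the list beside 15.0% of all genes. It read 6.46, 6.65, 6.66 and 6.87 in WT and 7.49, 7.47, 6.78, 6.92 and 7.33 in 5XFAD, with 5XFAD 3 inside the WT range and 5XFAD 1 and 5XFAD 2 the highest. Tap2 differed by 0.26 ± 0.11 (adjusted p = 0.134). In Trem2-/-5XFAD against 5XFAD the values were -0.29 ± 0.13 for Tap1 (adjusted p = 0.229) and -0.11 ± 0.10 for Tap2. None of the 9 was called there, beside 7.68% of all genes. Of 6 ubiquitin and activating enzyme genes listed, 1 was measured, Uba6, which differed by -0.05 in 5XFAD.

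**Figure D4:**
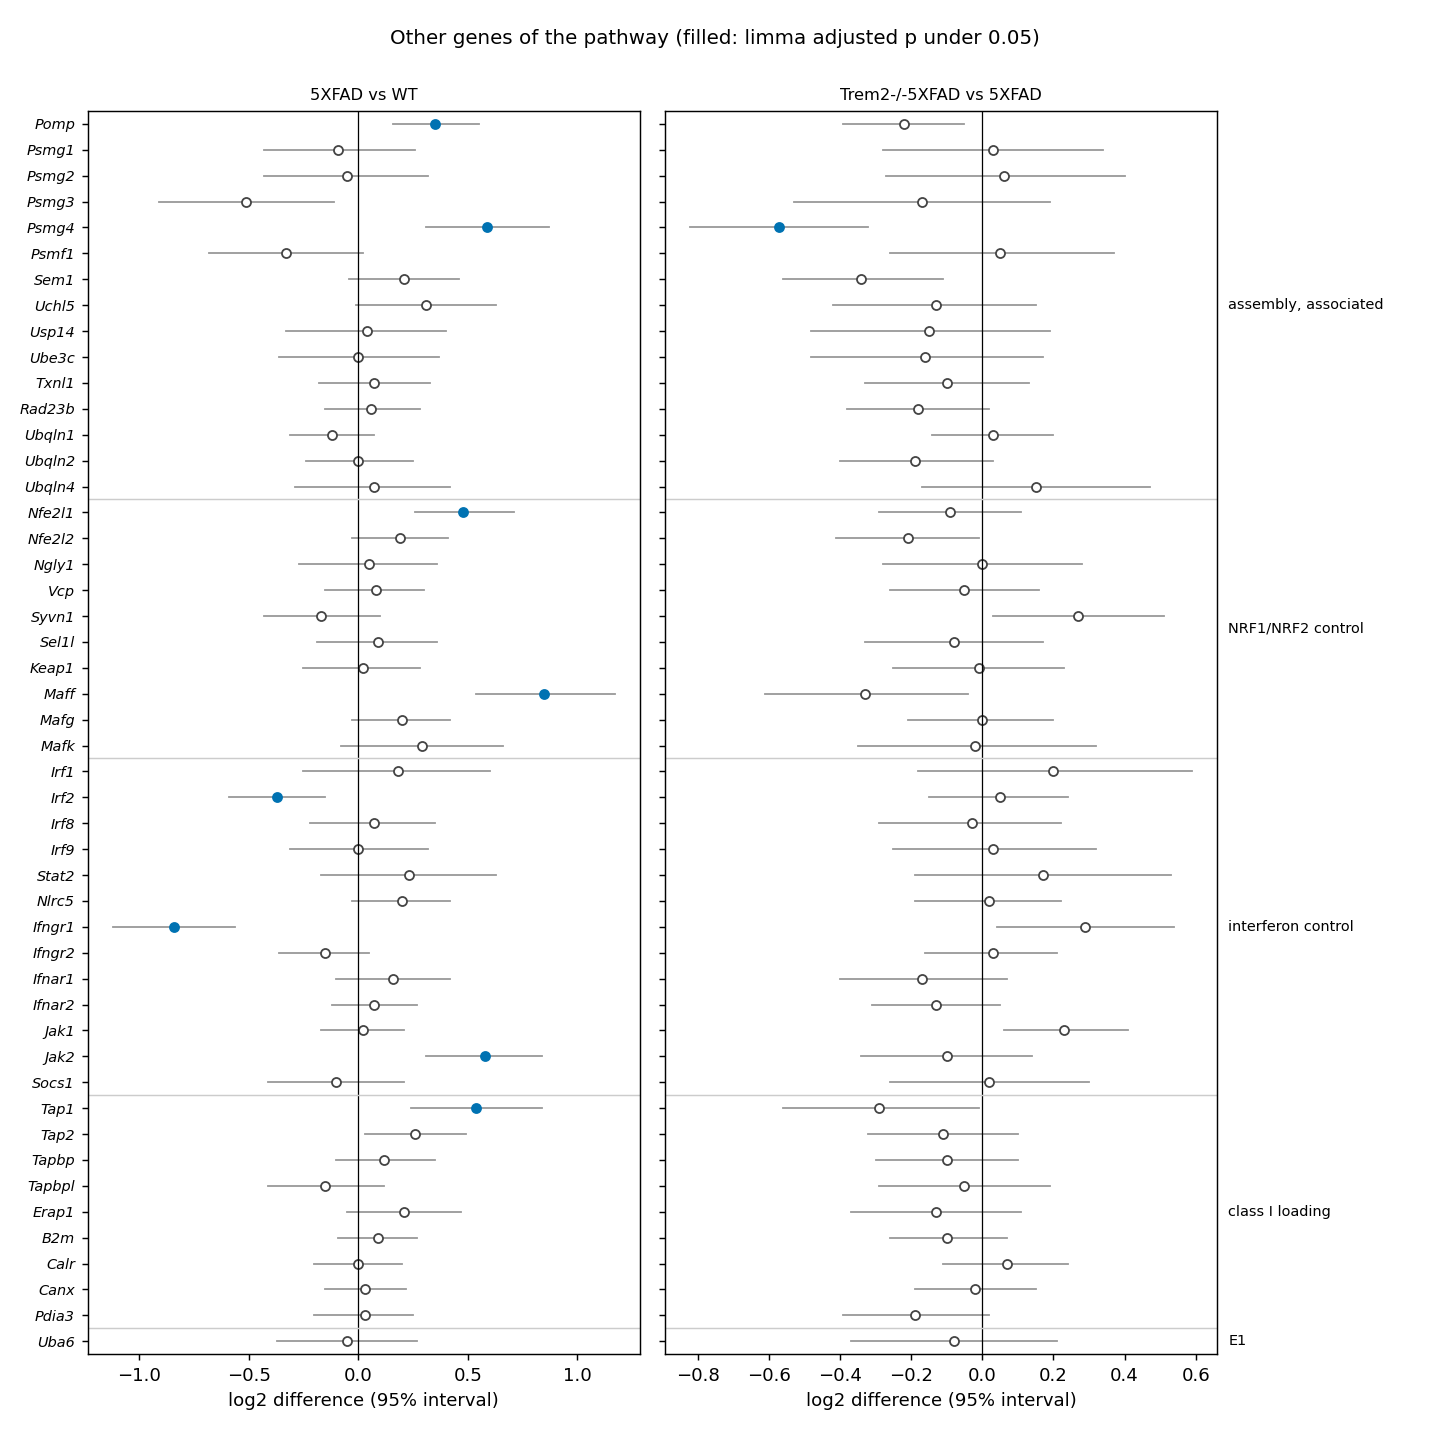
Log2 differences with 95% intervals of the tested genes of the assembly, Nfe2l1 and Nfe2l2 control, interferon control, class I loading and activating enzyme lists in 5XFAD against WT (left) and Trem2-/-5XFAD against 5XFAD (right). Filled points had an adjusted p under 0.05; on the right the only 1 is Psmg4 (-0.57 ± 0.12).

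Markers of several cell types moved with the groups. The 7 microglial markers measured summed to 19826 to 23139 intensity units in WT, 14551 to 15838 in 5XFAD and 18175 to 19335 in Trem2-/-5XFAD. In 5XFAD against WT 5 of the 7 fell, among them P2ry12 by 0.80 and Tmem119 by 0.96 on the log2 scale. In Trem2-/-5XFAD against 5XFAD 4 of the 7 rose, beside 7.68% of all genes called. The 8 markers of border macrophages summed to 1103 to 1896 in WT, 491 to 883 in 5XFAD and 1100 to 1946 in Trem2-/-5XFAD: 4 of 8 fell in 5XFAD, and 7 of 8 rose in Trem2-/-5XFAD against 5XFAD. The 6 astrocyte markers summed to 176 to 250 in WT, 286 to 522 in 5XFAD and 204 to 307 in Trem2-/-5XFAD, with Gfap higher by 2.16 in 5XFAD than in WT, and Aqp4 and Aldh1l1 below the filter. Of the 4 tested, 1 was called in 5XFAD against WT and 3 were not, with differences from 0.05 to 2.16. In Trem2-/-5XFAD against 5XFAD 2 of these 4 were called lower, with differences from -0.87 to -0.02. Neutrophil markers summed to at most 311 in WT, 1320 in 5XFAD, 2803 in Trem2-/- and 4923 in Trem2-/-5XFAD. The 6 monocyte markers measured summed to 64 to 86 in WT, 155 to 214 in 5XFAD and 105 to 145 in Trem2-/-5XFAD, with Ccr2, Vcan, Chil3 and Itga4 below the filter. Of the other 2, Anxa2 rose by 2.77 in 5XFAD and fell by 1.05 in Trem2-/-5XFAD against 5XFAD, and Plac8 was not called (-0.09 and 0.52). The 6 vascular markers summed to 150 to 195 in WT, 190 to 259 in 5XFAD and 112 to 138 in Trem2-/-5XFAD, with Cldn5, Pdgfrb and Rgs5 below the filter. In the same 2 comparisons Flt1 rose by 2.95 and fell by 2.97, Pecam1 fell by 1.63 and rose by 0.81, and Cdh5 was not called (-0.43 and 0.43). The part of these markers in the members' differences was not tested, other than by the fits with a covariate given next. The 9 lymphocyte markers measured stayed between 101 and 122 in every group, with 6 of 9 below the filter. The 5 oligodendrocyte markers measured summed to 328 to 346 in WT and 293 to 435 in 5XFAD, with 1 called higher. The 7 neuron markers summed to 117 to 170 in WT and 130 to 158 in 5XFAD, with 6 below the filter. In such bulk samples, fewer cells of a type and less RNA per cell cannot be told apart.

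Fits with the mean log2 level of a marker list as a covariate, chosen after seeing the data for astrocytes and border macrophages, changed the counts. With border macrophage markers, Psmb6 and Psmb8 were called in 5XFAD against WT and Psmb6 in Trem2-/-5XFAD against 5XFAD, beside 9.24% and 2.95% of all genes. With astrocyte markers, none of the members was called in either comparison (limma, with 3 and 2 members at an unadjusted p under 0.05), and the share of all genes called was 4.14% and 2.29%, so the loss of calls was general. Psmb6 then differed by 0.67 (adjusted p = 0.082) and -0.43 (adjusted p = 0.187), and Psmb8 by 0.45 (adjusted p = 0.331) and -0.23 (adjusted p = 0.638). The mean log2 level of the astrocyte list ran from 4.60 to 4.88 in WT and from 5.17 to 5.68 in 5XFAD, so in this fit the list and the genotype cannot be told apart. With neutrophil markers, 7 members were called in 5XFAD against WT and 2, Psmb6 and Psmb8, in Trem2-/-5XFAD against 5XFAD. The shares of all genes called were 14.3% and 5.39%. With the sex signal as a covariate the counts of members were 8 and 3, beside 13.1% and 6.80% of all genes.

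Several members had more than 1 probe set of their own. Psma3 had 3, and Psma5, Psmb3, Psmc1 and Psmd2 had 2 each. In 5XFAD against WT all 11 of these probe sets differed in the positive direction, from 0.08 to 0.34. The other probe set of Psmd2 read 0.34 ± 0.12 where the one used read 0.23 ± 0.18.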

How the data were processed

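Expression was measured on 1-colour arrays, 20 in all, and the deposited table holds linear intensity values for 24679 probe sets, as the authors left them. The sources used here do not give the tool and normalization behind the table. Column medians lay between 25.7 and 28.6. The number of arrays limits the precision. The platform annotation named 1 gene for 21354 probe sets, several for 1275 and none for 2050, and only the first kind was used. Where a gene had several, the one with the highest mean was taken. Values were transformed as log2(intensity + 1). Genes above the 40th percentile in at least 4 assigned arrays were tested, 12728 of 19751. Limma 3.58.1 in R 4.3.3 fitted 1 model to the 19 assigned arrays (15 residual degrees of freedom), with 5 contrasts and Benjamini-Hochberg adjustment over the 12728 genes at 0.05. The script was tested on simulated data. All tested members get a call. Values per array, or the range or mean of a group, are given for certain members. These are the immunoproteasome genes, the subunits they replace and the 3 largest called changes in each direction. For Trem2-/-5XFAD only the range, median or mean is given. Up to 4 genes of smallest p in 5XFAD against WT are named for each pathway list, and regulators and partners whatever their values. Figures were drawn with matplotlib 3.10.9. The members and lists were chosen with earlier results of these data known. Alternatives covered the pseudocount, filter, normalization, probe set, groups in the fit, replicate block, the array with conflicting labels, covariates and leaving out arrays.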

Additional observations from a re-analysis of the deposited data

Results flagged for a closer look

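Of 76 groups of arrays examined for a value far from the others, 3 held one, and chance alone would give about 1 in 20. Psmb8 was low in 1 Trem2-/-5XFAD array, Trem2-/-5XFAD 4, at 8.60 against 8.78 to 8.83 in the others of its group. Psme2 was low in Trem2-/-5XFAD 6, at 7.95 against 8.37 to 8.55. The immunoproteasome mean minus the constitutive mean was low in WT 2, at 0.29 against 0.40 to 0.42.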

How the results depend on the processing

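The count of members called in 5XFAD against WT was 7, and lay between 4 and 7 when 1 array was left out. It was 4 with only the groups compared in the fit, 2 without WT 1, WT 2, 5XFAD 1 and 5XFAD 2, 2 with the border macrophage covariate and 0 with the astrocyte covariate (limma, 3 members at an unadjusted p under 0.05), both covariates chosen after seeing the data. The cause was not tested. In Trem2-/-5XFAD against 5XFAD the count was 4, and 1 to 4 when 1 array was left out. It was 2 with the replicate block, 2 with the neutrophil covariate, 1 without the 4 arrays, 1 with the border macrophage covariate and 0 with the astrocyte covariate (2 at an unadjusted p under 0.05). Beside these counts, 7.68% of all genes were called in the main fit, and 5.32% to 8.08% with 1 array left out. The share was 5.92%, 5.39%, 4.57%, 2.95% and 2.29% in the alternatives just named, in the same order. The replicate block gave 6 members in 5XFAD against WT, beside 14.0% of all genes. It ended the calls of Psme2 (-0.39, adjusted p = 0.055) and Psma7 (-0.31, adjusted p = 0.0616) in Trem2-/-5XFAD against 5XFAD and of Psmd7 in 5XFAD against WT (0.34, adjusted p = 0.0949). In 25 pairs of arrays with the same replicate number, deviations from the group means correlated at -0.104 to 0.166. The correlation was above 0.1 in 5. Pairs of WT with 5XFAD gave 0.104, 0.161, 0.095 and 0.166. Arrays with different numbers were not compared, so whether the numbers pair the samples was not tested. In Trem2-/-5XFAD against Trem2-/-, 1 member, Psmd9, was called with only the groups compared, beside 2.73% of all genes. In Trem2-/- against WT and in the interaction the count was 0 in all alternatives run.

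Small uncalled differences changed sign. In Trem2-/- against WT, Psmb8 was -0.02 with the neutrophil covariate and -0.13 without the 4 arrays, Psmb10 0.00 with the conflicting array in WT and 0.06 without the 4 arrays, Psme2 0.05 with that array in Trem2-/- and 0.05 with the neutrophil covariate, and Psmb5 -0.01 and -0.04 in the same fits. With 1 array left out the ranges were -0.03 to 0.16 for Psmb8, -0.09 to 0.10 for Psmb10, -0.11 to 0.05 for Psme2, -0.05 to 0.07 for Psmb5, -0.13 to 0.01 for Psmb6 and -0.12 to 0.05 for Psmb7. In Trem2-/-5XFAD against Trem2-/-, Psmb9 was -0.03 and Psmb7 -0.05 with arrays centred on the median, Psmb7 -0.01 with the replicate block, and Psmb10 0.02 and Psmb5 0.08 with the sex signal. Their ranges with 1 array left out were -0.05 to 0.08 for Psmb9 and -0.05 to 0.07 for Psmb7. The interaction of Psme1 was 0.01 after quantile normalization. The direction of every called member was kept in all alternatives run.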
